A study of Mus musculus with 7 samples.

Results

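Dense clusters of Fos-bound regions were examined in mouse hippocampus after kainic acid. Overlapping peaks of the 3 kainic acid lists were merged, and regions on chromosomes 1 to 19 found in at least 2 lists were kept. Neighbouring regions were chained where the gap from the end of one to the start of the next was 10 kb or less, and regions in chains of 5 or more were taken as members. There were 2035 such regions, 7.64% of 26649, in 323 chains. The members were chosen by the peak calls themselves, so the numbers of members, chain lengths, spans and folds are given as descriptions with no test.

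The data are chromatin immunoprecipitation followed by sequencing (ChIP-seq) with a Fos antibody on hippocampus of wild-type C57BL/6J mice aged 2 months. One group, with 3 libraries, received saline, and the other, with 3 libraries, received kainic acid, a glutamate receptor agonist that evokes seizures. Kainic acid was given into the peritoneum at 10 mg/kg in 2 injections 30 min apart, and mice that reached seizures of level 4 were killed 1 h after the first injection. A single input library was also labelled, whose peaks were not analysed here, and the labels give no number of animals per library. The autosomal lists held 14890, 62620 and 29425 peaks in kainic acid replicates 1, 2 and 3, and 4, 3258 and 0 peaks in saline replicates 1, 2 and 3. No read totals come with these lists, so depth is unknown, and a region missing from a list was not called there. Whole hippocampus holds many cell types, so more cells bound at a site and more binding per cell cannot be told apart.

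Fos is the product of an immediate early gene. It pairs with a Jun protein to form AP-1, a transcription factor that binds the short palindrome TGANTCA, mostly at enhancers far from promoters. In neurons Fos is made within an hour of strong activity, and stretches with many closely spaced binding sites are known at genes with large regulatory domains.

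Among the members, 56 (2.75%) touched a promoter window, taken from RefSeq (GRCm38.p6) as 250 bases before to 50 after a start of a protein-coding gene. The 250 bases upstream of 6 such starts are printed because they show what a chain holds at the few places where it reaches a promoter. They are the starts in named chains whose member had the best mean percentile rank of deposited fold over the lists that called it, written 5′ to 3′ on the strand of the gene, with any TGANTCA in capitals:
Midn, chr10:80148022-80148271, plus strand: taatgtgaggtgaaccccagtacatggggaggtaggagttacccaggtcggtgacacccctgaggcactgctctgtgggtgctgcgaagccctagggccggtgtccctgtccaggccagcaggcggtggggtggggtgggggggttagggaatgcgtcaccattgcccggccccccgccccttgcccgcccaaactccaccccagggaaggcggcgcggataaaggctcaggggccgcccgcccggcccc
Cbarp, chr10:80137388-80137637, minus strand: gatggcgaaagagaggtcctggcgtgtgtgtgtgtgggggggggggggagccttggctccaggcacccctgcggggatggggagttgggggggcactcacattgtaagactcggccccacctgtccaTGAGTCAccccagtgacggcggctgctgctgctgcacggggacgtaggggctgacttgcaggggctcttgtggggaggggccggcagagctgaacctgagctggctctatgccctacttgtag
Bdnf, chr2:109692186-109692435, plus strand: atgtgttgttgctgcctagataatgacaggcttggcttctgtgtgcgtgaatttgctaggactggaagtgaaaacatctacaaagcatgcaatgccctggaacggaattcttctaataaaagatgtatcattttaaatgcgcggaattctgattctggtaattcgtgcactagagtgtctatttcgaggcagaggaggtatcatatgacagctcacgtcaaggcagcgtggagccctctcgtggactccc
Fosl2, chr5:32136222-32136471, plus strand: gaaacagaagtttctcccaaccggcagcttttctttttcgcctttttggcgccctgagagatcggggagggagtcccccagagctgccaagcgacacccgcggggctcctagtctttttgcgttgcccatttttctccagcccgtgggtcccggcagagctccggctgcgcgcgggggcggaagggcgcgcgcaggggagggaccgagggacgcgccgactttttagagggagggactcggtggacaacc
Inhba, chr13:16011601-16011850, plus strand: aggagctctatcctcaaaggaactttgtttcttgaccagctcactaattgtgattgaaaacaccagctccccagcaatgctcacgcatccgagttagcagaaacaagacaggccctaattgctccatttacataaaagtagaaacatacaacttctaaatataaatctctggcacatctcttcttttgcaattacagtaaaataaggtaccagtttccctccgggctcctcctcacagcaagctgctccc
Bdnf, chr2:109709133-109709382, plus strand: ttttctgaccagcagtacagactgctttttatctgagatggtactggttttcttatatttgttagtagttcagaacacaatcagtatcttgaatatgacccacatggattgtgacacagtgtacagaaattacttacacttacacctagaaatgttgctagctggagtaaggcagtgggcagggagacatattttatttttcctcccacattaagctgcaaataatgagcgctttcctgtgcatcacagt
The letters TGANTCA (both strands read alike) occurred in 1 of these 6 sequences, that of Cbarp, starting at base 128. The member over this window had a fold over local background of 8.87 and 5.44 in kainic acid replicates 2 and 3 and no peak in replicate 1. Over all chains, 7 of 59 promoter sequences touched by a member held TGANTCA, 11.9% (95% Clopper-Pearson interval 4.91 to 22.9). The share was 17.9% of 1000 promoter sequences touched by another region in at least 2 lists, and 6.18% of all 20085. The cyclic AMP response element TGACGTCA, also a palindrome, was present in 2 of the 59 (3.39%), in 3.90% of the 1000 and in 1.98% of all promoter sequences. These are matches of letters in a window, not sites of binding, and the sequence under the other members was not read.

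The number of members far exceeded that of randomly placed regions. With the 26649 regions placed at random, with an even chance over each chromosome, a closed formula gave 15.7 members in 3.06 chains. The observed 2035 members were 130 times that number of members. Fos regions as a whole are unevenly spread, however. With the density taken from the 1 Mb around each region, its chain neighbours included, 293 members would be expected. This leaves a ratio of 6.96. Most regions stood alone: 14320, or 53.7%, had no neighbour within 10 kb. There were 333 chains of 4, just below the limit, and 158 chains of 5, just above it, and the values of both classes lay close together. In this order, the median rank of fold was 41.3 and 44.4 percentile points (0 is the highest fold of a list), the share of regions called in all 3 lists 44.0% and 45.7%, and the span 15.0 and 18.7 kb. The gap limit also fell in a smooth part of the distribution, with 453 gaps of 9 to 10 kb and 466 of 10 to 11 kb. Chains of 10 or more numbered 25, and the longest held 20 regions.

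**Figure D1:**
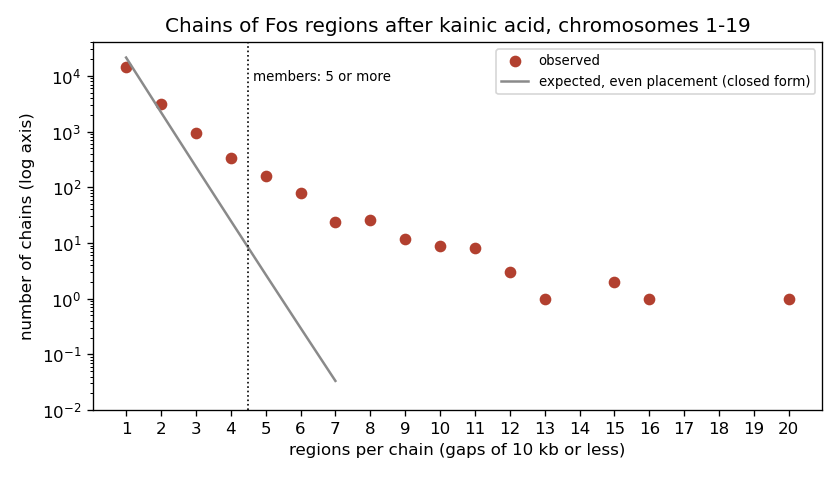
Number of chains (log axis) against the number of regions per chain, for regions on chromosomes 1 to 19 in at least 2 kainic acid lists. Points are observed, and the dotted line marks the limit of 5. The solid line is the number expected by the closed formula from random placement with an even chance over each chromosome. The observed points lie above the line from chains of 2 on and reach 20 regions.

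The chains lay on 19 of 19 autosomes and together spanned 8.07 Mb, 0.328% of the autosomes. The median chain held 6 regions over 23.0 kb, with spans from 4.63 to 72.9 kb. Members themselves covered a median of 21.4% of a chain. The median gap between neighbours was 3.11 kb, and 348 of 1712 gaps (20.3%) were under 1 kb, and there 1 broad stretch of signal split into several peaks cannot be told apart from separate sites. Joining regions under 1 kb apart, an alternative chosen after seeing the data, left 194 chains of 5 or more with 1200 members. The next region outside a chain lay a median of 16.5 kb away.

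The number of chains fell when either of the 2 longer lists was left out. Of the members, 99.2% had a peak in kainic acid replicate 2, 95.3% in replicate 3 and 50.3% in replicate 1, close to the 99.1%, 94.1% and 51.2% of the other regions. Chains of 5 or more numbered 273 without replicate 1, 28 without replicate 2 and 35 without replicate 3. Regions then had to be in both lists left, and numbered 24875, 12088 and 13426 in that order. Members were 151, 463 and 352 times the number expected from random placement of those regions. With regions called in all 3 lists only, 27 chains with 154 members were left, and with lists trimmed to equal numbers of peaks, 35 chains with 199 members. A set of 22 chains overlapped a chain of 5 or more under each of these 5 settings. The settings are not separate checks, since regions called in all 3 lists mostly stay when 1 list is left out. The 27 chains left with regions in all 3 lists were also kept without any 1 replicate. The 22 chains included the following. There were the long chains at Ntrk2, Dlg2, Ankrd33b, Cracdl, Atp2b1 and Mast4, and 2 chains at Dlgap1. Shorter ones lay at Furin, Sik3, Vcl, Mbnl2 and Rab3gap2 and near Pcgf5.

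The longest chain lay in Ntrk2, which encodes TrkB, the receptor for brain-derived neurotrophic factor. Its 20 regions at chr13:58852968-58923856 spanned 70.9 kb, from 46.5 to 117 kb downstream of the 5′ end of the gene. It held 13, 46 and 20 peaks in kainic acid replicates 1, 2 and 3 and 0 saline peaks, and 11 of the 20 regions were in all 3 lists. The median fold of its members was 4.61, 6.37 and 4.61 in the 3 libraries in that order. The member of best rank, chr13:58876812-58878984, had folds of 5.61, 9.78 and 8.15. The highest fold of the chain was 13.2, at chr13:58886072-58887036 in replicate 2, with 4.56 and 7.55 in replicates 1 and 3. A second chain of 7 regions lay nearer the 5′ end, from 8.10 to 34.5 kb into the gene, so that Ntrk2 carried 27 members in all. The folds belong to each library and are not scaled between libraries, so a higher value in replicate 2 says nothing of more binding there.

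The other long chains lay in genes of several kinds. Anks1b, which encodes a protein of the postsynaptic density, held 16 regions over 72.9 kb, of which 3 were in all 3 lists. Dlg2, the gene of the scaffold PSD-93, held a chain of 15 over 64.2 kb, with 9 in all 3 lists. Dlgap2, whose product binds such scaffolds, held 12 over 52.5 kb, including a region with folds of 14.2, 20.0 and 13.9. Atp2b1, a plasma membrane calcium pump, and Mast4, a microtubule-associated kinase, each held a chain of 11 with 19 and 18 peaks in replicate 2. The chain in Mast4 began 454 kb from the 5′ end of the gene. Neither Anks1b nor Dlgap2 kept a chain of 5 without replicate 2 or without replicate 3.

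The chain of 15 in Ankrd33b covered most of a gene of 76.3 kb. It held the strongest member among the 10 longest chains after that of Dlgap2: chr15:31336445-31337825 had folds of 14.9, 20.2 and 12.5 in replicates 1, 2 and 3. Strong and weak members stood next to each other there. The next member to the right had 4.98, 7.16 and 5.22, a further one at chr15:31343817-31345707 had 6.35, 18.6 and 6.57, and the weakest of the chain called in replicates 1 and 2 had 2.72 and 3.34. Cracdl carried 13 regions, 9 of them in all 3 lists. A pair of chains of 12 lay in a gene-poor stretch of chromosome 6 (chr6:31100088-31156435 and chr6:31168711-31220924), 141 kb from Klf14 and 178 kb from Mkln1, the nearest protein-coding genes. Only 12.3 kb separated them, and with a limit of 20 kb they merged into 1 chain of 31.

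**Figure D2:**
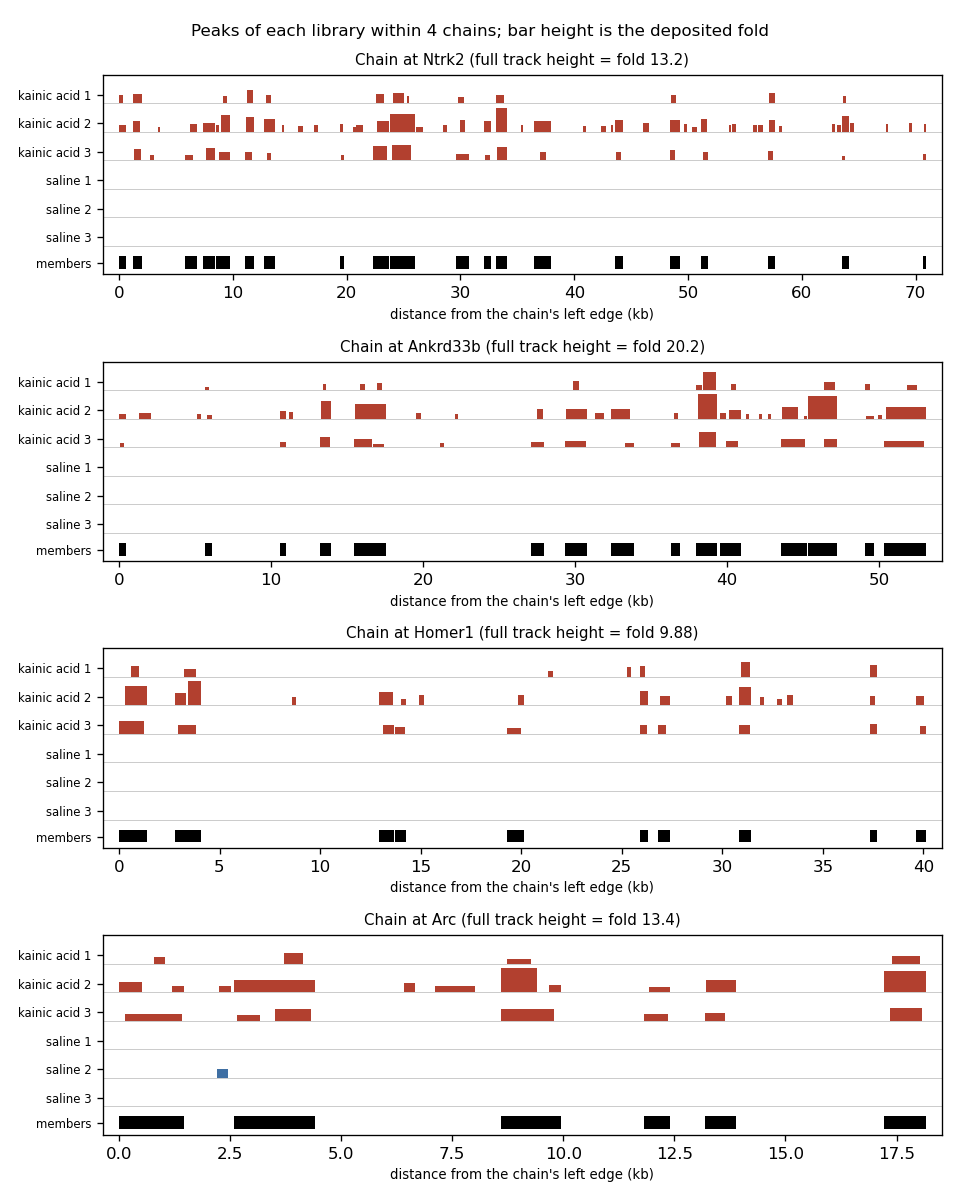
Peaks of each library within the chains at Ntrk2, Ankrd33b, Homer1 and Arc, against distance from the left edge of the chain in kb; bar height is the deposited fold on the scale given in each title, and black boxes are the members. Kainic acid peaks fill each chain, and 1 peak of saline replicate 2 stands in the Arc chain.

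Chains were also ordered by the median rank of fold of their members. The best median rank, 9.43 percentile points, belonged to 5 regions near Pcgf5, a Polycomb group gene 16.0 kb away. All 5 were in all 3 lists, with median folds of 7.44, 10.5 and 6.72. Furin, a protease that cleaves proneurotrophins and other precursors, held 5 regions over 15.2 kb, all in the 3 lists, with median folds of 4.89, 10.9 and 5.96. A chain of 5 regions in Ank3, the gene of ankyrin-G at the axon initial segment, had a median rank of 14.0. Ank3 carried 18 members in 3 chains in all. The chain of 5 in Ankrd28, a phosphatase subunit gene, had a median rank of 14.7.

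The remaining chain of the 5 with the best median rank covered 4 small genes on chromosome 10. These were Cbarp, Atp5d, Midn and Cirbp, with 9 regions over 36.1 kb. Midn encodes midnolin, which carries nuclear proteins to the proteasome. Its printed promoter lay under a member with folds of 4.98, 17.2 and 10.4 in replicates 1, 2 and 3. This was also the chain with the most saline signal among those named, with 4 saline peaks, all in replicate 2. The most compact chain was that in Ppp3ca, the calcineurin catalytic subunit gene, where 5 regions fitted into 4627 bp. Next came Wdr1 (7280 bp), a chain 81.1 kb from Daam1 (7587 bp), Grin2a (8357 bp) and Garem1 (8885 bp). With regions under 1 kb apart joined, no chain of 5 or more was left at any of these compact chains. The same held without replicate 2, without replicate 3 and with regions in all 3 lists only. None of the 6 regions of the Grin2a chain was called in replicate 1.

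The genes that carry chains were then counted. Of 20665 autosomal protein-coding genes, 330 (1.6%) had a chain within 10 kb and 282 (1.36%) were overlapped by one. Long genes had more: the share was 0.586% of genes under 20 kb, 1.58% from 20 to 100 kb, 5.00% from 100 to 300 kb and 11.4% above 300 kb. Among the 2313 genes over 100 kb as a whole, 150 (6.49%) had a chain, against 180 of 18352 shorter ones (0.981%). Counts of genes are therefore given with gene length. With 5 kb as the gap limit 99 genes had a chain, and without replicate 2 there were 29.

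Transcription factors induced early by activity are short genes, and 5 of 24 carried a chain (20.8%). This list and those below were chosen with earlier results of these data known, so their shares are descriptions and not independent findings. All 24 are under 100 kb, where the background was 0.981%, and all 24 had at least 1 Fos region within 10 kb, against 41.8% of all genes. Nr4a3, an orphan nuclear receptor, had 10 regions over 29.7 kb, all within the gene, with folds at its best member of 4.53, 5.26 and 4.85. Its relative Nr4a2 had 6 regions, only 1 of them in all 3 lists. Fosl2, which encodes the Fos family member Fra-2, had 5 regions from 7.11 kb before its 5′ end to 14.6 kb after it. The member over its printed promoter had folds of 4.21, 10.6 and 5.51. Klf9 had 5 regions, Egr4 shared 6 with its neighbour Fbxo41, and Fos itself carried none.

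Activity-regulated genes of the synapse, signalling and secretion carried a chain in 11 of 38 cases (28.9%). All 38 had a Fos region within 10 kb, against 41.8% of all genes, but this list too was chosen with earlier results known. Of the 9 genes of this list over 100 kb, 5 had a chain, and of the 29 shorter ones 6. The shares over all genes of these lengths were 6.49% and 0.981%. At the synapse, Synpo, which encodes the spine apparatus protein synaptopodin, had 11 regions. Homer1, a postsynaptic scaffold whose short form is made after activity, had 10, from 3.96 kb before its 5′ end to 36.2 kb into the gene. Its best member had folds of 4.52, 7.97 and 5.19. Arc, which acts in the trafficking of AMPA receptors, is a gene of 3.49 kb with 6 regions spread over 18.2 kb, of which 2 touched the gene. The folds of the 4 Arc regions called in replicate 1 ran from 2.59 to 5.66, and those of all 6 ran from 3.12 to 13.4 in replicate 2 and from 3.46 to 6.95 in replicate 3.

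Among secreted factors, Bdnf, the ligand of TrkB, had 5 regions, all within the gene and from 16.6 to 37.6 kb past its 5′ end. The region over the upstream one of its printed starts, at chr2:109691305-109692481, had folds of 9.00 and 5.23 in replicates 2 and 3 and no peak in replicate 1. The region over the downstream start, at chr2:109708546-109709877, had 4.22, 5.86 and 3.92 in replicates 1, 2 and 3. The last region, at chr2:109710706-109712321, had 7.26, 7.77 and 7.02, and its rank within the 3 lists was the best of the chain. The other 2 regions were called in 2 lists each, with folds from 3.38 to 5.40. Inhba, which encodes the activin A subunit, had 6 regions, 1 of them over its printed promoter with folds of 8.34 and 3.70 in replicates 2 and 3.

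In signalling, Rheb, the GTPase that activates mTORC1, had 7 regions, 5 of them in all 3 lists. Lingo1, an inhibitor of myelination and axon growth, had 8, only 1 of them in all 3 lists. Bach2, Mapk4 and Gadd45b had 6, 5 and 5. Of all these activity-regulated chains, the Ntrk2 chain of 20 and the Rheb chain remained without replicate 2 and without replicate 3. Without replicate 1, 13 of the 16 genes kept a chain, while Bdnf, Fosl2 and Nr4a2 did not. With 5 kb as the gap limit 6 of the 16 genes kept a chain.

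Receptor, scaffold and channel genes are mostly long. Among postsynaptic scaffold genes 7 of 20 carried a chain (35.0%), 6 of them among the 12 genes over 100 kb: Dlg2 (35 members in 4 chains), Dlgap1 (30 in 4), Dlgap2 (25 in 3), Homer1, Magi2, Dlgap4 and Camk2a, the last with 5 members within 10 kb of the gene. The share was 6.49% of all genes over 100 kb, with 5.00% from 100 to 300 kb and 11.4% above 300 kb. Dlg2, Dlgap1, Dlgap2 and Magi2 are above 300 kb. Homer1 is also in the list of activity-regulated genes. The strongest member of any chain, by mean rank, lay in Dlgap1 at chr17:70753096-70754414, with folds of 17.4, 30.4 and 16.0. Of 25 glutamate receptor genes, 3 had a chain: the AMPA receptor gene Gria1 with 19 members in 3 chains, and the NMDA receptor genes Grin2b and Grin2a with 7 and 6. All 3 were among the 17 genes over 100 kb, and each is above 300 kb. Potassium channel genes gave 3 of 30 (Kcnd2, Kcnma1 and Kcnip1), all 3 among the 18 over 100 kb and each above 300 kb. Without replicate 2, a chain was left at 2 of the 7 scaffold genes, Dlg2 and Dlgap1, and at no glutamate receptor or potassium channel gene. Without replicate 3 it was left at the same 2 scaffold genes, at Grin2b and at no potassium channel gene.

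Lists with counts of 0 or 1 lay near the background of 6.49% of genes over 100 kb and 0.981% of shorter ones, so nothing is read from them. Of 26 synaptic adhesion genes, 19 over 100 kb, 1 had a chain (Epha4, 5 regions), and 24 had a Fos region within 10 kb. Of 22 genes of cyclic AMP signalling, 14 over 100 kb, 0 had a chain and 20 had a region. Cell type markers gave 1 of 16 for dentate granule cells (Pdzd2, 8 regions), 1 of 15 for oligodendrocytes (Mbp, 9 regions), and 0 of 18 for pyramidal cells, 0 of 16 for interneurons, 0 of 15 for astrocytes, 0 of 14 for microglia and 0 of 14 for endothelial cells. Liver genes, a list of another organ, gave 0 of 22. Peak lists hold no expression, so they do not show in which cells a chain was bound.

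**Figure D3:**
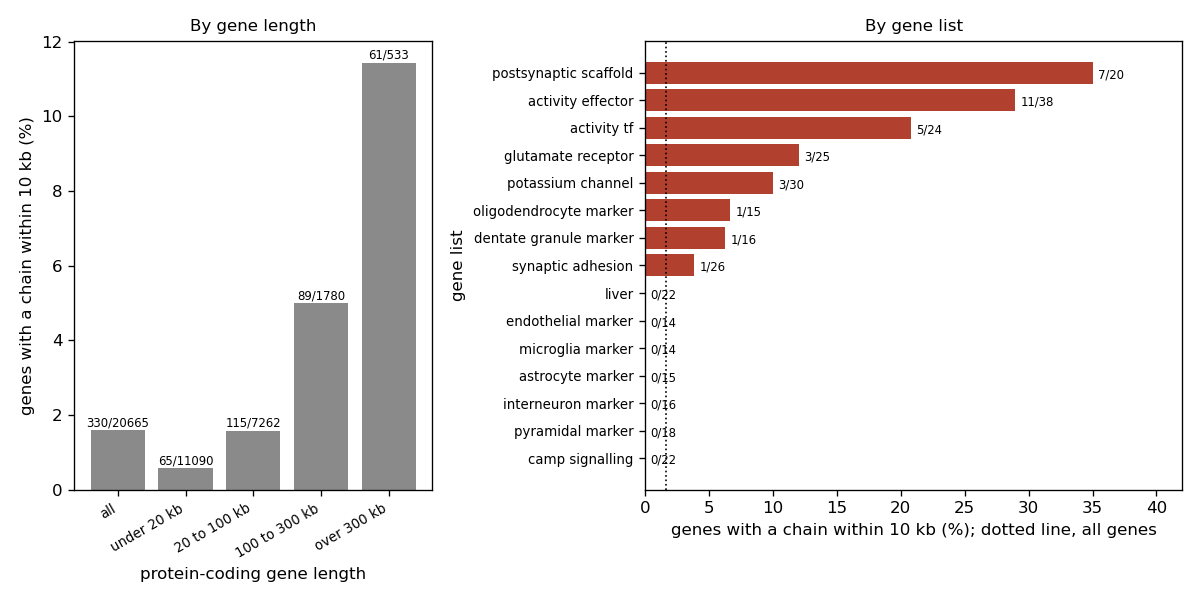
Percent of autosomal protein-coding genes with a chain within 10 kb, by gene length (left) and by gene list (right), with counts beside the bars; the dotted line is the share of all genes, 1.6%. The share rises with gene length to 11.4%, and the 3 highest lists are postsynaptic scaffolds and both lists of activity-regulated genes.

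Counted over all genes, 33 carried 2 or more chains and 10 carried 3 or more. Tcf4, which encodes a basic helix-loop-helix factor, had the most members, 36 in 5 chains. Dlg2 followed with 35, then Prkce, a protein kinase C gene, with 32, Dlgap1 with 30 and Ppp3ca with 28. These genes were picked by the number of members, so no comparison is drawn from them.

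A larger share of members than of other regions lay inside genes, a difference that was not tested. In all, 84.4% of members (interval 82.7 to 85.9) and 63.5% of the others (62.9 to 64.1) overlapped a protein-coding gene, and 57.3% against 38.1% overlapped one longer than 100 kb. Promoter windows were touched by 2.75% of members (2.09 to 3.56) and 3.53% of other regions (3.31 to 3.77), so those intervals overlapped. Within genes over 100 kb of known strand, each gene was divided into 5 parts of equal length, and the part at the 3′ end held 11.9% of 838 member placements (9.82 to 14.3) and 17.3% of 7307 placements of other regions (16.5 to 18.2). The parts before it, from the 5′ end, held 23.4%, 20.9%, 21.2% and 22.6% of the member placements. Intervals cover counting error only, and members of 1 chain share a gene, so they are not independent. Of the 323 chains, 275 overlapped 1 protein-coding gene, 24 several and 24 none.

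The folds of members lay close to those of other Fos regions. The median deposited fold was 4.44 for members and 4.48 for other regions in replicate 1, 5.66 and 5.94 in replicate 2, and 4.17 and 4.17 in replicate 3. The share called in all 3 lists was 44.8% (912 members) and 44.5%. Members were somewhat wider, with a median of 766 against 681 bp. Among the strongest, 3.24% of members and 3.46% of other regions ranked in the top 5%, and 0.344% (7 members) and 0.654% in the top 1%. Strong and weak members stood side by side, since the SD of rank within a chain, 22.3 percentile points, was nearly that over all members, 22.5. The strongest member was at an edge in 121 of 323 chains, where an even choice would give 110.

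**Figure D4:**
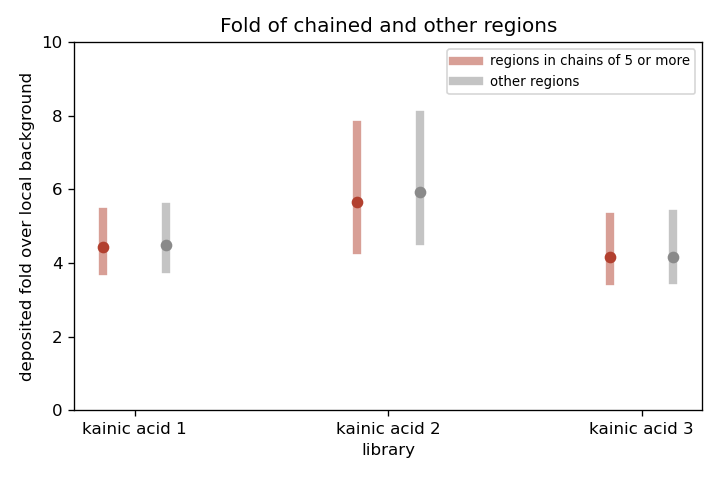
Deposited fold over local background in each kainic acid library for regions in chains of 5 or more and for other regions; points are medians and bars run from the lower to the upper quartile. The bars of both sets overlap in every library, and the medians differ by less than the width of a bar.

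To compare members with other regions in data that did not choose them, chains were rebuilt from 2 kainic acid libraries and read in the library left out. Chained regions were called in replicate 1 in 47.5% of 1722 cases, against 47.7% of other regions. In replicate 2 the shares were 99.4% of 163 and 98.0%, and in replicate 3 they were 91.2% of 205 and 88.5%. The mean share was 79.4% ± 27.9 (SD, n = 3) and 78.1% ± 26.7 (SD, n = 3), and the difference of 1.31 ± 1.48 percentage points (SD, n = 3) was within its spread. It was positive in 2 of 3 libraries, and the two-sided exact sign-flip permutation test gave p = 0.5 (Benjamini-Hochberg adjusted over 2 measures, 0.5). The smallest p that 3 libraries allow is 0.25.

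The fold in the library left out was ranked slightly lower in chained regions. The median rank was 45.8, 13.2 and 25.5 percentile points in chained regions and 42.2, 12.2 and 24.6 in other regions, for replicates 1, 2 and 3. The mean difference was 1.87 ± 1.53 points (SD, n = 3) toward lower folds in 3 of 3 libraries, with p = 0.25 by the two-sided exact sign-flip permutation test (adjusted 0.5). It turned to −0.231 with a gap limit of 5 kb and to −0.816 with peaks of −log10 q of at least 5, so no direction was held. Nothing says that the libraries came from separate animals. Each library also helped to build the chains that were read in the others, so the 3 differences were not independent. These p-values therefore rest on the signs and sizes of 3 dependent differences, and no conclusion is drawn from them.

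**Figure D5:**
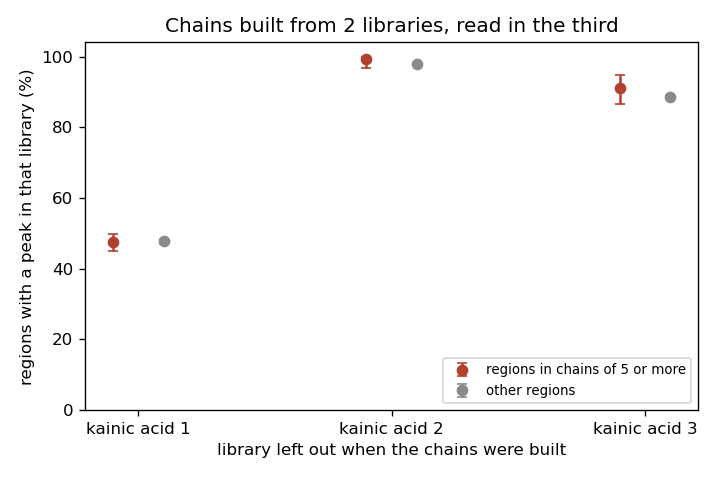
Percent of regions with a peak in the kainic acid library left out, for chained and other regions defined from the other 2 libraries; bars are 95% Clopper-Pearson intervals. Chained and other regions lie together in each library, near 47.5%, 99.4% and 91.2%.

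Few members had a saline peak. Saline replicate 2 had one at 48 of 2035 members, 2.36% (1.74 to 3.12), in 39 chains, and at 1.99% of other regions (1.82 to 2.17), so the intervals overlapped. Saline replicates 1 and 3, with 4 and 0 autosomal peaks, had none at a member. For a count of 0 of 2035 regions the limit is 0.147% by the rule of 3 counts and 0.181% by the Clopper-Pearson interval, but lists this short set no limit on binding. The chain at Midn and Cirbp, with 4 saline peaks, is described above. Among the other chains named for length, rank, span or an activity-regulated gene, that at Klf9 had 2 saline peaks. Those at Arc, Bdnf, Synpo, Gadd45b, Mast4, Ank3 and near Mkln1 had 1 each. Saline replicate 2 also had a peak at a member of a chain at Gria1, Grin2b, Camk2a and Prkce and near Frmd8. No test was made between the groups, since 1 saline library holds nearly all saline peaks.

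Hairpins of microRNAs near chains were also counted. Of 919 autosomal hairpins of the RefSeq table (GRCm38.p6), 3 (0.326%) lay within 10 kb of a chain. The chains themselves, without that margin, spanned 0.328% of the autosomes, so nothing is read from the count. Their mature sequences are shown, with the seed (bases 2 to 8) in capitals, as these are the microRNA genes of that table that the chains reach:
mmu-miR-1962, inside the chain of 8 in Ptpre: aGAGGCUGgcacugggacacau
mmu-miR-218-5p, 8.55 kb from the chain of 5 in Slit3, its host gene: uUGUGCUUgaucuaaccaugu
mmu-miR-218-2-3p, from the other arm of that hairpin: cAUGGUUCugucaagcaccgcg
mmu-miR-7235-3p, inside the chain of 6 at Tbkbp1: uCUGACUUcuugcuucucuccuc
The 4 seeds differ, and the lists hold no measure of these RNAs.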

How the data were processed

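Each of the 6 libraries has 1 deposited list of peaks, on chromosomes of the mouse build mm10 per the submitters' processing notes. Those notes name Trim Galore 0.6.4, Bowtie2 2.3.4.3, MACS2 and deepTools 3.5.0, without roles, and the peak names show trimming, a mapping quality filter of 30, sorting and merging. The control library, the cutoff and the fragment length are not given in the sources used here. In the deposited lists the authors' score, which was not used, is an integer per peak, the fold is a linear ratio of a peak to its local background, and −log10 p, −log10 q and the summit offset also belong to 1 library. None is scaled between libraries. The authors called peaks per library, so each list is 1 replicate.

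Peaks were merged on an overlap of at least 1 bp, and a region took the highest fold of its peaks in each list and the mean of its percentile ranks. Expected numbers came from a closed formula with each chromosome as long as its last gene or region end, which ignores mappability. Gene spans came from a RefSeq table of GRCm38.p6, the assembly of mm10. Shares have 95% Clopper-Pearson intervals. Chaining was tested on simulated data with planted chains. Python 3.11.15, pandas 2.3.3, numpy 2.4.6 and SciPy 1.17.1 were used. Chains named are the 10 longest, the 5 of best median rank, the 5 shortest, all at activity-regulated genes and up to 4 per other list. The region whose folds are printed is the best ranked of its chain, and others printed were chosen after their values were seen. Members, gene lists and tests were chosen with earlier results of these data known. Alternatives were the gap limit, the chain length, list and peak filters, summits, gene spans and leaving out libraries. Sequence under summits was planned and not run, since no genome was used. The input and the sex chromosomes were left out. One gene list and the place of 1 saline chain are not reported here.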

Additional observations from a re-analysis of the deposited data

Results flagged for a closer look

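The saline lists form no part of the choice of chains. The peaks of saline replicate 2 alone gave 4 chains of 5 peaks each under the same limits of gap and chain length. These were peaks of 1 list, while kainic acid regions had to be in at least 2. Saline replicates 1 and 3, with 4 and 0 autosomal peaks, could not form a chain of 5. The chains of saline replicate 2 included those at Trp53bp1 and Map1a, at Midn and Cirbp, and at Trim8. The folds of the 4 chains ran from 3.24 to 5.30. The chain at Midn and Cirbp held 7 members of the kainic acid chain there, and the other 3 held none.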

How the results depend on the processing

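The counts depended on the limits and lists. The 2035 members in 323 chains became 585 in 102 with a gap limit of 5 kb and 5480 in 762 with 20 kb, 6187 in 1596 for chains of 3 or more and 609 in 63 for 8 or more. They became 154 in 27 with regions in all 3 lists, 575 in 95 and 55 in 10 with −log10 q of at least 5 and 10, 199 in 35 with lists of equal length and 1296 in 211 with summits widened by 100 bp. Leaving out 1 kainic acid library gave 163 to 1722 members in 28 to 273 chains, with the fewest without replicate 2. Chosen after seeing the data, joining regions under 1 kb apart gave 1200 in 194, and the list of replicate 2 trimmed to the length of replicate 3 gave 1009 in 169. Genes with a chain went from 330 to 99 (5 kb), 897 (20 kb), 28 (all 3 lists), 29 to 288 (leaving out 1 library, fewest without replicate 2; 35 without replicate 3) and 517 (all annotated genes). Activity-regulated genes with a chain went from 16 to 6 (5 kb), 27 (20 kb), 2 (all 3 lists) and 2 to 13 (leaving out 1 library, 2 without replicate 2 or replicate 3). The saline share of members was 3.59% with 5 kb, 0.613% to 2.67% leaving out 1 kainic acid library (1.46% without replicate 3) and 0.688% with saline peaks of −log10 q of at least 5. Expected members were 1.15 with 5 kb, 183 with 20 kb and 293 with local density. The held-out difference in fold rank reversed to −0.231 (5 kb), −0.816 (−log10 q of at least 5), −1.23 (within regions of middle rank) and −0.176 (within those of weakest rank). The cause of these changes was not tested. Of 372 values for 31 named chains, 173 were within 1.5 times the main number of regions, 193 were lower and 6 higher. These 31 were the longest chains, those of best median rank and those at activity-regulated genes. The shortest chains were not among them. No paired analysis was possible because no test contrasts saline with kainic acid samples, the groups that share replicate numbers. The held-out tests are themselves paired within each library. Read depth is unknown, and a chain absent from a shorter list was not called there, which is not absence of binding.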

Other observations

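Some chains had another chain close by: among the 323 chains, 26 pairs of neighbours lay within 50 kb and 43 within 100 kb of each other. Of the 323 chains, 210 had a further region less than 20 kb from an edge. The sex chromosomes, outside the definition of members, held 212 regions in at least 2 kainic acid lists and no chain longer than 3. The 24 chains without a protein-coding gene included 2 near Enc1, 131 and 281 kb away, 1 of 5 regions near Cartpt, 136 kb away, and 1 of 8 regions near Frmd8, 26.7 kb away.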
